A study of Homo sapiens with 30 samples.

Results

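The genes described here are those covered by many exon-level probe sets on a human exon array, a proxy for many exons. A probe set is a group of short probes, placed mostly within 1 exon. Members were the probe sets whose single gene symbol in the platform annotation had 50 or more probe sets in the exon-level table. The rule gave 19272 of 287329 probe sets, from 290 of 16941 genes with a single symbol. Another 10973 genes had 10 to 49 probe sets and served for comparison. The members had 50 to 178 probe sets each, with a median of 60, against a median of 17 in the comparison genes. There were 20 members with 100 or more. SYNE1 (178 probe sets) and SYNE2 (145), which link the nucleus to the cytoskeleton, NEB (155), a muscle thin-filament protein, DST (136), a plakin linker, and MDN1 (129), a ribosome assembly ATPase, had the most.

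The samples were T47D cells, an established luminal breast cancer line, transfected with 10 nM siRNA. Control siRNA was directed against luciferase, and in the other 4 groups the siRNA targeted a NELF subunit: NELF-A in siNELF-A, NELF-B in siNELF-B, NELF-C in siNELF-C and NELF-E in siNELF-E. Cells received fresh medium at 48 hours and grew for another 48 hours, and 1 ug of total RNA was labelled per sample. Each group had 3 arrays, described by the submitters as technical repeats, so p-values measure the spread between repeats in 1 cell line. All values are log2 signals, and 1 unit is a doubling. In bulk RNA, fewer cells of one kind and less RNA per cell cannot be told apart.

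Negative elongation factor (NELF) is a protein complex that holds RNA polymerase II shortly after it has started a gene, in the state called promoter-proximal pausing. Its subunits depend on each other, and depletion of 1 often lowers the others. Genes with many exons are mostly long and encode very large proteins: cytoskeletal linkers, motor proteins, matrix proteins, channels, chromatin regulators and DNA repair proteins. The design asked which genes and exons respond to loss of each subunit and which respond to all of them. For genes with many probe sets the array also shows whether the whole transcript moves or only a stretch of it.

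Of the 290 members, 10 were lower in the mean of the 4 knockdowns than in control and none was higher. Among them were FANCD2 and FANCA, which repair DNA crosslinks, CIT and CENPE, which act in cytokinesis and at the kinetochore, FN1, which encodes fibronectin, and NSD2, a histone methyltransferase. The falls of FANCD2, FN1, CENPE and CIT were 1.36 to 1.66 log2 units. The 250 bases before the annotated start of these 4 genes, the called members with the largest falls, are given here from RefSeq on GRCh38.p14, 5′ to 3′ on the gene's strand. Capitals mark matches on either strand to any of 5 motifs, and adjoining matches run together. The motifs are the CCAAT box, the TATA box (TATAAA), the core of the interferon-stimulated response element, and as other short motifs TTTGAA, and also TTCGAA.
FANCD2 (chr3:10026187-10026436, plus strand): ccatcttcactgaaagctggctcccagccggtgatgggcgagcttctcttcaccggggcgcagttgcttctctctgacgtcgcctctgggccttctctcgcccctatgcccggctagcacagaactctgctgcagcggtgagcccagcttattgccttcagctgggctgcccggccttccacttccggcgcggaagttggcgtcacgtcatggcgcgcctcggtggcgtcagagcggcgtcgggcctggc
FN1 (chr2:215436069-215436318, minus strand): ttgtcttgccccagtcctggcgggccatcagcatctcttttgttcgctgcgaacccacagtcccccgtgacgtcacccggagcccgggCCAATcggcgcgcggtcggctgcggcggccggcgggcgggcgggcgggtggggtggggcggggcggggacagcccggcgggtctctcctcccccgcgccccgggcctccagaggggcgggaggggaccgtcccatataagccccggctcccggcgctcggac
CENPE (chr4:103198344-103198593, minus strand): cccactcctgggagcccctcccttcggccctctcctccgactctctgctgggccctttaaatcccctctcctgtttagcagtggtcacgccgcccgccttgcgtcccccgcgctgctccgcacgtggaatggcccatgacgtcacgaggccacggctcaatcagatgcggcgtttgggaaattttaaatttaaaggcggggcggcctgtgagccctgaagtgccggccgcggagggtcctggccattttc
CIT (chr12:119877321-119877570, minus strand): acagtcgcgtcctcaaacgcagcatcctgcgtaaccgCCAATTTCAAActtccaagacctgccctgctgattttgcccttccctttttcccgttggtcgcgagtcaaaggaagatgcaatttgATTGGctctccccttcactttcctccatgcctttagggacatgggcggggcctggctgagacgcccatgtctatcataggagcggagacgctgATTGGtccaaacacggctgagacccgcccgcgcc

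CIT held 3 matches to CCAAT, at 213, 127 and 34 bases before the start, and 1 to TTTGAA on the other strand, which directly follows the first of them. FN1 held 1 CCAAT, 162 bases before the start. FANCD2 and CENPE held none of the 5 motifs in this window. A promoter sequence was found for 236 of the 290 members, taking the first listed start of each gene. CCAAT occurred in 31.8% of these and in 33.0% of 27305 promoters of the same length. TTTGAA occurred in 10.2% against 13.6%, TATAAA in 5.93% against 11.1%, the interferon response core in 1.27% against 3.07% and TTCGAA in 0.847% against 1.2%. The median GC content was 66.8% in the members' promoters, 64.0% in those of the comparison genes and 58.0% in all. A match describes the letters only.

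Of 3 NELF subunit genes that could be checked, 2 were called lower in their own knockdown. The NELF-C gene (NELFCD) was at 9.20 to 9.31 on the control arrays and 5.14 to 5.82 on the siNELF-C arrays. The NELF-E gene was at 7.22 to 7.29 in control and 4.60 to 4.70 in siNELF-E. The NELF-A gene was at 6.14 to 6.34 in control and 5.39 to 5.92 in siNELF-A, a difference of -0.61 ± 0.21 (SE) that was not called (limma, adjusted p = 0.177). NELFB had no probe set under its own symbol and was not analysed here. Against the 25th percentile of genes (3.19), none of 10 luminal markers had a lower mean signal, and they ran from 6.61 to 12.2. Of the markers of other types with a value, 1 of 4 basal, 2 of 6 mesenchymal, 1 of 5 striated muscle, 2 of 3 endothelial and 3 of 3 leukocyte markers were below it, and the highest signals of these types were 4.49, 6.04, 5.80, 3.28 and 2.89 in turn. The limit therefore does not separate luminal from basal, mesenchymal or muscle markers, although the luminal range lay above all the others. Over the members, siNELF-B replicate 2 had a mean r of 0.989 with the control arrays and 0.888 with its own group. SiNELF-B replicate 3 had a mean r of 0.838 with its own group and 0.807 with control. SiNELF-B replicate 1 had 0.927 with its own group and 0.975 with control. The own-group means of replicates 1 and 2 both include replicate 3. The arrays outside siNELF-B had at least 0.989 within their groups. Counts are therefore given with and without siNELF-B replicates 2 and 3. Without them siNELF-B is 1 array, assumed to vary like the other groups.

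Across arrays, the median gene signal of the members moved with that of the comparison genes but not by the same amount. On control arrays the members' median was 5.01 to 5.11 and that of the comparison genes was 5.49 to 5.64. The gap, members minus comparison genes, was -0.53 to -0.48 in control, -0.70 to -0.58 in siNELF-A, -0.54 to -0.26 in siNELF-B, -0.41 to -0.37 in siNELF-C and -0.61 to -0.49 in siNELF-E. The siNELF-A gaps were all wider than in control and the siNELF-C gaps all narrower, with no overlap. The siNELF-B and siNELF-E gaps overlapped control. Signals of different probe sets depend on their probes, so the gap on 1 array says nothing of RNA amounts, and only its change between arrays is used. The lowest members' median, 4.05, was on siNELF-B replicate 3, which also had the narrowest interquartile range over all probe sets (3.67, against 4.02 to 4.13 on control arrays). Its part in the gaps was not tested.

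**Figure D1:**
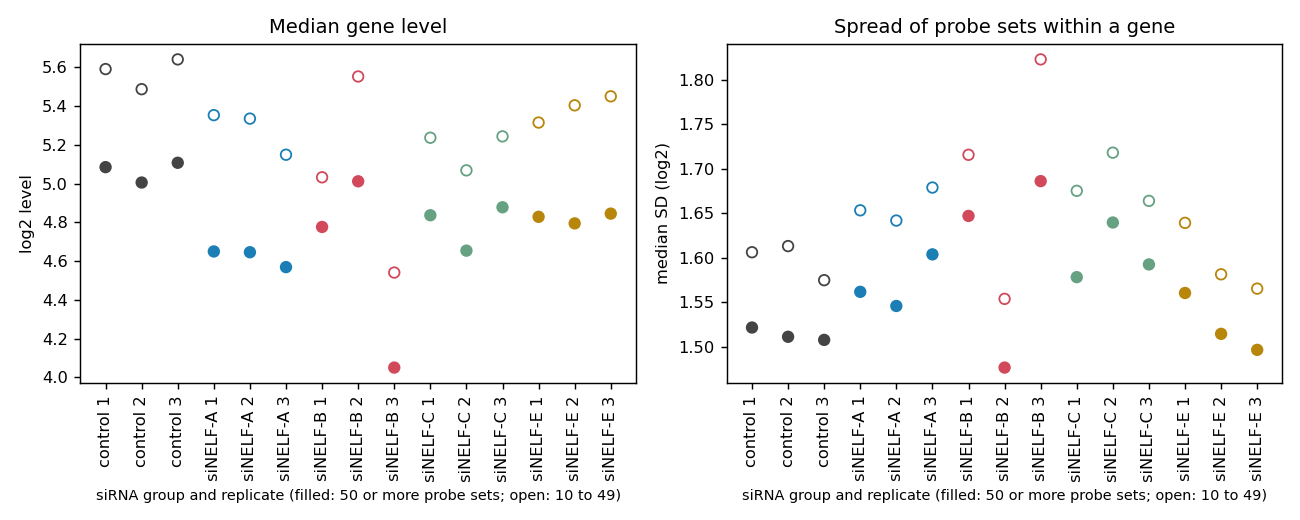
Left, median gene signal (log2) on each of the 15 arrays for the 290 genes with 50 or more probe sets (filled) and the 10973 genes with 10 to 49 (open). Right, median over genes of the SD of a gene's probe sets on that array; siNELF-B replicate 3 has the lowest medians and the highest spreads.

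Within a gene, probe sets differed widely on any 1 array. The SD over a gene's probe sets had a median of 1.51 to 1.52 over members on the control arrays and 1.57 to 1.61 over the comparison genes. On the siNELF-A arrays it was 1.55 to 1.60 over members and on the siNELF-C arrays 1.58 to 1.64, both above all 3 controls. Over the comparison genes it was 1.64 to 1.68 and 1.66 to 1.72 on the same arrays, also above their controls. On siNELF-B replicates 1, 2 and 3 it was 1.65, 1.48 and 1.69 over members. On siNELF-E replicates 1, 2 and 3 it was 1.56, 1.51 and 1.50, overlapping control. The members' SD was smaller than that of the comparison genes on each of the 15 arrays. The gene value used below is the median over a gene's probe sets. Its residual SD between repeats had a median of 0.29 over members, 0.34 over comparison genes and 0.35 over all genes. For single probe sets the same figure was 0.54 for members and 0.51 for comparison genes.

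A gene was called when its Benjamini-Hochberg adjusted p in limma's moderated test, over all 16941 genes, was below 0.05 and its change was at least 1.5-fold. In the mean of the 4 knockdowns against control, 10 of 290 members were called lower (3.45%), beside 3.91% of all genes. None was called higher, beside 0.313% of all genes. In siNELF-A, 8 members were lower (all genes 2.05%) and none higher (0.283%). In siNELF-B, 1 member was lower (3.19%) and none higher (0.106%). In siNELF-C, 8 members were lower (4.33%) and 2 higher (0.761%). In siNELF-E, 14 members were lower (3.31%) and none higher (0.95%). The members' shares were near the background for lower calls, except in siNELF-B, where the share was under it. At an unadjusted p below 0.05 in limma, 61 members were lower in the mean of the knockdowns (21.0%, all genes 17.4%) and 6 higher (2.07%, all genes 3.98%). The higher counts at that limit were 5 in siNELF-A (1.72%, all genes 3.81%) and 5 in siNELF-B (1.72%, all genes 3.42%). They were 15 in siNELF-C (5.17%, all genes 5.58%) and 10 in siNELF-E (3.45%, all genes 4.89%). The lower counts were 45 in siNELF-A (15.5%, all genes 11.1%) and 63 in siNELF-B (21.7%, all genes 27.6%). They were 53 in siNELF-C (18.3%, all genes 17.6%) and 30 in siNELF-E (10.3%, all genes 9.57%). No member was called in all 4 knockdowns, against 28 of the 10973 comparison genes (0.255%) called lower in all 4.

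The calls also changed with the model. With a term for each array's interquartile range in the fit, the mean of the knockdowns had 2 members called lower (0.69%, all genes 0.909%), FN1 and FLNA. The changes of FANCD2 and CENPE in the mean of the knockdowns were then -0.70 (limma adjusted p = 0.365) and -0.71 (adjusted p = 0.21), neither called.

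Leaving out siNELF-B replicates 2 and 3 raised these counts for members and for all genes. In the counts that follow for this fit, brackets hold the share of all genes and not that of members. In the mean of the knockdowns 49 members were then lower (all genes 15.1%) and none higher (1.3%). In siNELF-A there were 57 lower (10.9%) and none higher (1.94%). In siNELF-B there were 32 lower (19.6%) and 2 higher (1.07%). In siNELF-C there were 75 lower (20.1%) and 7 higher (3.67%), and in siNELF-E 31 lower (8.72%) and 4 higher (3.38%). Under these arrays 4 members were lower in every knockdown: FN1, KNTC1, a kinetochore protein, and NIN and CNTRL, both centrosome proteins (1.38% of members). The comparison genes had 258 such genes (2.35%). The counts also rested on single arrays. Without control replicate 1, 2 or 3 the mean of the knockdowns had 0, 1 and 0 members called, beside 0.59%, 1.07% and 0.484% of all genes. Without siNELF-B replicate 2 alone it had 59 (20.3%, all genes 19.4%), and without siNELF-B replicate 3 alone 36 (12.4%, all genes 8.68%). Leaving out siNELF-E replicate 1 or siNELF-C replicate 2 gave 5 and 6 (all genes 2.69% and 2.7%). In siNELF-A the count was 3 or 4 without any 1 control or siNELF-A array (all genes 0.815% to 1.25%). It was 22 (7.59%, all genes 7.18%) and 54 (18.6%, all genes 8.99%) there without siNELF-B replicates 2 and 3 in turn. In siNELF-B it was 121 without replicate 2 (41.7%, all genes 42.7%). In siNELF-C it was 1 to 4 without any 1 control or siNELF-C array (all genes 0.714% to 1.83%), 5 without siNELF-A replicate 1 or 2 (3.83% and 3.53%), and 4 or 5 without any 1 siNELF-E array (3.35% to 3.62%). It was 38 (13.1%, all genes 16.7%) and 74 (25.5%, all genes 18.5%) there without siNELF-B replicates 2 and 3 in turn. In siNELF-E it was 3 or 4 without any 1 control or siNELF-E array (all genes 2.09% to 2.45%). It was 22 (7.59%, all genes 8.25%) and 30 (10.3%, all genes 9.1%) there without siNELF-B replicates 2 and 3 in turn. The share of all genes thus moved along with the members' counts, but not always by the same amount. Without siNELF-B replicate 3 the siNELF-A shares were 18.6% of members and 8.99% of all genes.

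The median change of the 290 members in the mean of the knockdowns was -0.17, beside -0.19 in the comparison genes and -0.12 over all genes. For siNELF-A it was -0.18 (all genes -0.05), for siNELF-B -0.19 (-0.25), for siNELF-C -0.10 (-0.12) and for siNELF-E -0.00 (-0.02). Centring each array on its median moved the all-gene median to 0.14 and the members' to 0.10, so the sign of the members' median rests on the scaling. By sign alone, 93 members were below control in all 4 knockdowns, 69 were above in all 4 and 128 were mixed. The changes followed signal. For the 119 members with a mean signal below the 40th percentile of genes (4.28), the median change was 0.08. It was -0.32 for the 99 members from there to the 70th percentile (6.15) and -0.48 for the 72 above it. The comparison genes gave 0.06, -0.29 and -0.36 in the same ranges. All genes gave 0.07, -0.23 and -0.33. More of the members lay in the lowest range (41% of them, against 34.2% of the comparison genes). At low signal an array compresses changes, and counts over all members include these genes.

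**Figure D2:**
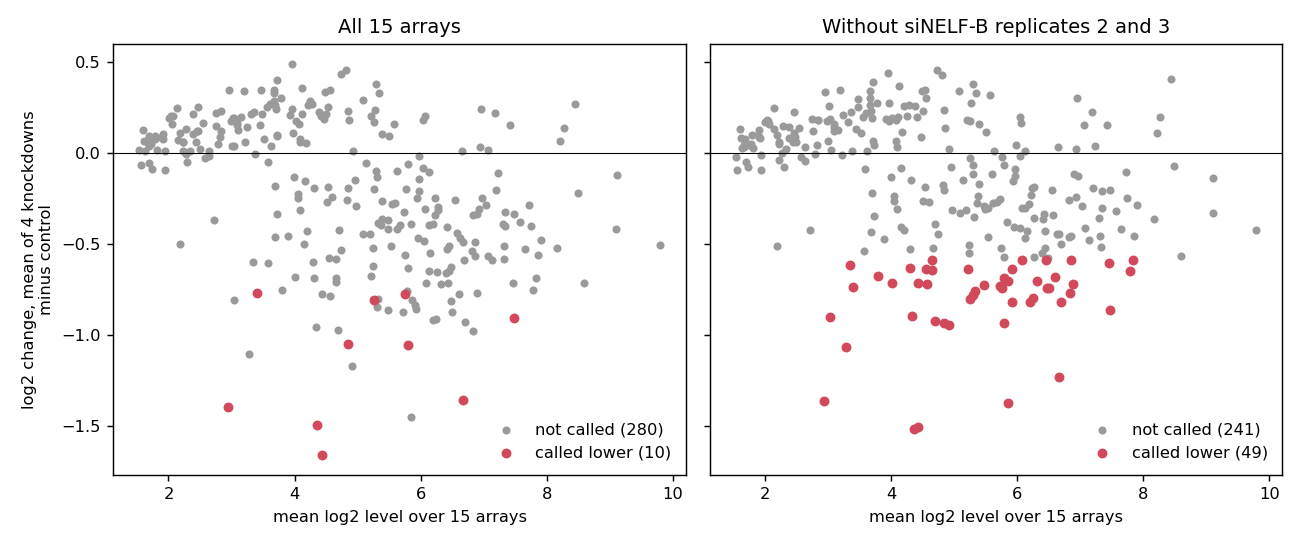
Log2 change of each of the 290 members in the mean of the 4 knockdowns against its mean log2 signal, with all 15 arrays (left) and without siNELF-B replicates 2 and 3 (right). Red points were called lower (10 and 49), and no member was called higher in either panel.

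The member with the largest average fall was a DNA repair gene. FANCD2, the protein whose ubiquitination starts crosslink repair, was at 5.42, 5.84 and 6.02 on the control arrays, 4.72, 4.99 and 4.84 in siNELF-A, 5.25, 5.86 and 2.75 in siNELF-B, 3.61, 3.21 and 3.94 in siNELF-C, and 2.88, 3.57 and 3.60 in siNELF-E. Outside siNELF-B, every knockdown array was below every control array, and siNELF-B overlapped control. The change was -1.66 ± 0.44 (SE; 3.16-fold; limma adjusted p = 0.0484) in the mean of the knockdowns, -2.17 ± 0.56 in siNELF-C (adjusted p = 0.039) and -2.41 ± 0.56 in siNELF-E (adjusted p = 0.0229). The siNELF-A change of -0.91 was not called. The average call was lost when any of 13 of the 15 arrays was left out, and kept without siNELF-B replicate 2 or replicate 3. The adjusted p without 1 array ran from 0.000688 to 0.26. The siNELF-C call was lost when any of 12 of the 15 arrays was left out, and the siNELF-E call when any of 6 was. With the interquartile range term the siNELF-C change was -1.001 and was not called (adjusted p = 0.235).

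FANCA, a core subunit of the complex that modifies FANCD2, was at 6.48, 6.26 and 6.39 in control, 5.97, 5.96 and 5.80 in siNELF-A, 6.08, 6.27 and 5.51 in siNELF-B, 5.78, 5.71 and 5.53 in siNELF-C, and 4.96, 4.82 and 4.85 in siNELF-E. All arrays but siNELF-B replicate 2 were below the lowest control, and siNELF-E was lowest. The change was -0.77 ± 0.16 (adjusted p = 0.0151) on average and -1.50 ± 0.20 in siNELF-E (adjusted p = 0.000634). With median centring the average change was -0.51 and fell short of 1.5-fold. All 9 members of the list of PIKK kinases (large stress-signalling kinases) and genome maintenance genes had a negative average change, with a median of -0.71 (-0.45 with median centring, 9 negative). Of these, 2 were called lower on average (all genes 3.91%) and 4 in siNELF-E (all genes 3.31%). Of the 9, 8 were at or above the 40th percentile of signal. As deposited, 169 of all 290 members had a negative average change. POLQ and POLE, DNA polymerases for end joining and for replication, fell by 1.51 and 1.18 in siNELF-E. PRKDC, ATR, MTOR, SMG1 and TRRAP had average changes of -0.71 to -0.47, none called.

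Among mitotic genes, CIT, the citron kinase of the cleavage furrow, was at 7.73, 7.69 and 7.83 in control, 6.60, 6.57 and 6.16 in siNELF-A, 7.60, 7.65 and 6.02 in siNELF-B, 6.49, 6.47 and 6.46 in siNELF-C, and 5.26, 5.65 and 5.79 in siNELF-E. Every knockdown array lay below the lowest control, by little for siNELF-B replicates 1 and 2. The average change was -1.36 ± 0.27 (2.56-fold; adjusted p = 0.013), and the siNELF-E change was -2.18 ± 0.34 (adjusted p = 0.00185). The siNELF-E call was kept whichever array was left out, and the average call was lost without any 1 of the 3 control arrays. CENPE, a kinetochore motor, was dim: 3.71, 3.99 and 4.46 in control, 2.95, 2.95 and 3.19 in siNELF-A, 3.39, 4.34 and 2.08 in siNELF-B, 2.12, 1.93 and 2.45 in siNELF-C, and 1.86, 2.30 and 2.38 in siNELF-E. Its siNELF-C and siNELF-E changes of -1.89 and -1.87 were called (limma adjusted p = 0.0205 and 0.0172). No fold is given because both group means lie below the 40th percentile. The siNELF-C call was lost on leaving out any of 5 of the 15 arrays, and the siNELF-E call any of 4. With the interquartile range term the siNELF-C change was -1.06 and not called (adjusted p = 0.0967), while the siNELF-E call was kept. Of its 61 probe sets, 31 were above the 25th percentile.

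The 7 members of the mitosis list all had a negative average change, with a median of -0.77. Of these, 2 were called lower, beside 3.91% of all genes. With median centring the median was -0.51 and 6 were negative. Of the 7, 5 were at or above the 40th percentile of signal. Without siNELF-B replicates 2 and 3, the average changes of CEP192, CDK5RAP2, CEP350 and CEP290 were -0.92, -0.68, -0.59 and -0.61. These are proteins of the centrosome and of the ciliary base. PCNT, the pericentriolar scaffold pericentrin, had -0.15 and was not called. KNTC1 and NIN were chosen after their values were seen. KNTC1 was at 6.97, 6.86 and 7.19 in control, 6.18, 6.03 and 6.00 in siNELF-A, 5.71, 6.93 and 3.56 in siNELF-B, 5.52, 5.25 and 6.01 in siNELF-C, and 4.79, 5.43 and 5.31 in siNELF-E. Only siNELF-B replicate 2 reached the control range. Its average change was -1.45 (adjusted p = 0.0812, not called) and -1.37 (adjusted p = 0.000212) without siNELF-B replicates 2 and 3. NIN changed by -0.89 (adjusted p = 0.00148) without them.

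**Figure D3:**
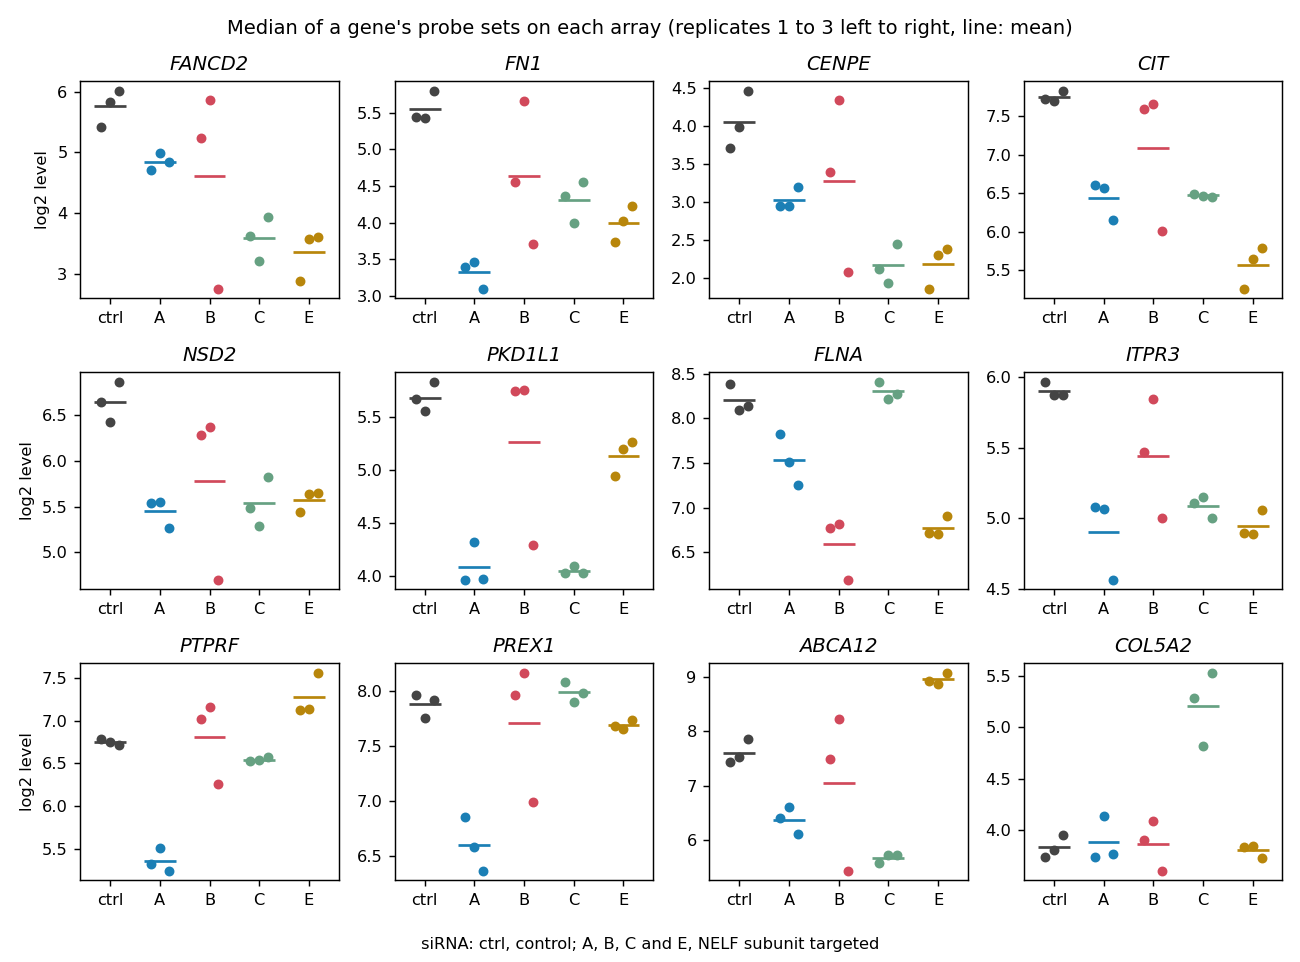
Log2 signal of 12 members on every array: dots are the 3 arrays of a group in order of replicate number, and lines are group means (n = 3). FANCD2, CENPE and CIT are lowest in siNELF-C or siNELF-E, FLNA is at the control level in siNELF-C, PTPRF and PREX1 are low in siNELF-A, ABCA12 is high in siNELF-E and COL5A2 is high in siNELF-C.

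The extracellular matrix list held 38 members, the largest of the lists, and 1 of them, FN1, was called lower on average. FN1 was at 5.45, 5.42 and 5.80 in control, 3.40, 3.46 and 3.10 in siNELF-A, 4.55, 5.66 and 3.70 in siNELF-B, 4.37, 3.99 and 4.55 in siNELF-C, and 3.74, 4.02 and 4.23 in siNELF-E. Every array but siNELF-B replicate 2 was below the lowest control, and siNELF-A was lowest. The change was -1.49 ± 0.29 (2.81-fold; adjusted p = 0.0115) on average and -2.24 ± 0.36 (adjusted p = 0.0045) in siNELF-A. The siNELF-A call was kept whichever array was left out. The average call was lost without any 1 control array. COL12A1, a collagen that sits on fibril surfaces, fell by 1.46 in siNELF-E.

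The collagen genes COL5A2 and COL4A5 rose in siNELF-C. COL5A2, a chain of type V collagen, was at 3.74, 3.80 and 3.95 in control and 5.28, 4.81 and 5.53 in siNELF-C, with no overlap. The other groups ran from 3.61 to 4.14, near control. The rise was 1.37 ± 0.21 (adjusted p = 0.00344), kept whichever array was left out. COL4A5, of basement membranes, was at 4.77, 4.02 and 4.04 in control and 5.18, 5.04 and 5.11 in siNELF-C. Its rise of 0.83 ± 0.22 (adjusted p = 0.0449) was lost on leaving out any of 12 of the 15 arrays. Over the 38 matrix genes the average change had a median of 0.17 and the siNELF-C change a median of 0.35, while 22 of them were below the 40th percentile of signal. With quantile normalization and median centring the average median was 0.37 and 0.44. LAMA5, a laminin chain, and COL18A1, a basement membrane collagen, changed by 0.04 and 0.18 on average without a call. Of 6 mesenchymal markers, 3 are members (COL1A1, COL1A2 and COL3A1), at 6.04, 4.25 and 3.95, and PDGFRB was at 3.68, all above the 25th percentile. VIM and DCN were below it at 3.14 and 1.68.

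Cytoskeletal genes were led by FLNA, the actin crosslinker filamin A. It was at 8.38, 8.09 and 8.14 in control, 7.83, 7.51 and 7.25 in siNELF-A, 6.77, 6.81 and 6.19 in siNELF-B, 8.41, 8.22 and 8.28 in siNELF-C, and 6.72, 6.70 and 6.91 in siNELF-E. SiNELF-C overlapped control, and the other 3 groups lay below it entirely. The change was -1.61 ± 0.21 in siNELF-B (adjusted p = 0.0021), -1.43 ± 0.21 in siNELF-E (adjusted p = 0.00137), -0.68 in siNELF-A (not called) and 0.10 ± 0.21 in siNELF-C. FLNA was the only member called in siNELF-B with all arrays, and that call was kept whichever array was left out. The 18 members of the spectrin, plakin and ankyrin list had a median average change of 0.01, with 1 called. SYNE2 had -1.17 on average (adjusted p = 0.108, not called), and -0.94 (adjusted p = 0.000586) without siNELF-B replicates 2 and 3. SYNE1 had a signal of 2.15 to 2.51 on all 15 arrays and DST had an average change of -0.41. The dynein and myosin heavy chains, 7 members each, had no call in any contrast with all arrays. SPTAN1, a spectrin chain, and PLEC, a plakin, had 0.14 and 0.24 without a call. MYH9, a non-muscle myosin, had 0.07. DYNC1H1, the cytoplasmic dynein motor, had 0.92 in siNELF-C (adjusted p = 0.109), which was called without siNELF-B replicates 2 and 3 (adjusted p = 0.00055).

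Of 22 channel genes, PKD1L1 and ITPR3 were called on average. PKD1L1, a polycystin of the cilium, was at 5.66, 5.55 and 5.83 in control, 3.96, 4.32 and 3.97 in siNELF-A, 5.74, 5.75 and 4.29 in siNELF-B, 4.02, 4.09 and 4.02 in siNELF-C, and 4.94, 5.19 and 5.26 in siNELF-E. The siNELF-A and siNELF-C arrays formed a low group, siNELF-E lay between and siNELF-B overlapped control. The change was -1.60 ± 0.31 in siNELF-A (adjusted p = 0.0136) and -1.64 ± 0.31 in siNELF-C (adjusted p = 0.0111). ITPR3, an intracellular calcium release channel, was at 5.96, 5.87 and 5.87 in control and at 4.57 to 5.15 on the 9 arrays of the knockdowns other than siNELF-B. The siNELF-B arrays were at 5.47, 5.85 and 5.003. ITPR3 was the only member called in 3 knockdowns, with changes of -0.998 in siNELF-A, -0.81 in siNELF-C and -0.95 in siNELF-E. Its average change was -0.81 ± 0.17 (adjusted p = 0.019). With median centring it was -0.54, short of 1.5-fold, and the call was lost. PIEZO1, a mechanosensitive channel, and ITPR2, a close relative of ITPR3, had 0.16 and -0.39 without a call. The list's median was 0.16 (0.42 with median centring), and 14 of the 22 were below the 40th percentile.

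Several members were called lower in siNELF-A and differed from siNELF-E. PTPRF, a receptor tyrosine phosphatase of cell junctions, was at 6.79, 6.76 and 6.71 in control, 5.32, 5.51 and 5.25 in siNELF-A, 7.02, 7.16 and 6.26 in siNELF-B, 6.52, 6.54 and 6.57 in siNELF-C, and 7.12, 7.14 and 7.56 in siNELF-E. SiNELF-A was below all other arrays and siNELF-E was above all controls. The siNELF-A change was -1.39 ± 0.23 (adjusted p = 0.0046), kept whichever array was left out. PREX1, an activator of the GTPase Rac, was at 7.96, 7.75 and 7.92 in control and 6.86, 6.59 and 6.37 in siNELF-A, a change of -1.27 ± 0.26 (adjusted p = 0.0164). PLXND1, a semaphorin receptor, and ABCA2, a lipid transporter, fell by 1.21 and 0.88 in siNELF-A, and ABCA2 also fell in siNELF-C, by 0.82. The differences between siNELF-A and siNELF-E were tested directly: siNELF-E was higher by 1.91 for PTPRF, 1.08 for PREX1, 1.39 for PLXND1 and 0.84 for ABCA2, all called.

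ABCA12, a lipid transporter of secretory and skin epithelia, differed most between knockdowns. It was at 7.44, 7.52 and 7.85 in control, 6.42, 6.61 and 6.12 in siNELF-A, 7.50, 8.22 and 5.45 in siNELF-B, 5.58, 5.73 and 5.74 in siNELF-C, and 8.92, 8.87 and 9.07 in siNELF-E. Against control, siNELF-C was -1.92 ± 0.47 (adjusted p = 0.0342) and siNELF-E was 1.35 ± 0.47 (adjusted p = 0.154, not called). The siNELF-C call was lost on leaving out any of 8 of the 15 arrays, and with the interquartile range term that change was -0.81 (adjusted p = 0.137). Between siNELF-E and siNELF-C the difference was 3.27 ± 0.47 (adjusted p = 0.00174). ADGRV1, a very large adhesion receptor, was dim: 3.97, 3.92 and 4.16 in control, 2.90, 2.84 and 2.86 in siNELF-A, 3.28, 3.55 and 2.60 in siNELF-B, 2.60, 2.67 and 3.05 in siNELF-C, and 3.91, 4.21 and 4.45 in siNELF-E. SiNELF-E overlapped control and the other groups lay below it. Its average change was -0.77 ± 0.19 (adjusted p = 0.0359). That call was lost on leaving out any of 10 of the 15 arrays, with median centring (-0.51, adjusted p = 0.0617) and with the replicate number as a block (adjusted p = 0.0628).

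Over the 6 pairs of knockdowns, 2.07% of members were called between siNELF-B and siNELF-A (6 genes), beside 2.85% of all genes. Between siNELF-C and siNELF-A 7 were called (all genes 1.97%), between siNELF-E and siNELF-A 9 (3.47%), between siNELF-C and siNELF-B 3 (1.27%), between siNELF-E and siNELF-B 8 (7.23%) and between siNELF-E and siNELF-C 9 (4.42%). FLNA was called in 3 of them, higher in siNELF-C than in siNELF-B by 1.71 and lower in siNELF-E than in siNELF-C and in siNELF-B than in siNELF-A. The knockdowns share their control arrays, so these differences and the changes against control are different views of the same arrays.

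NSD2, which dimethylates histone H3, was the chromatin gene with an average call. It was at 6.64, 6.42 and 6.86 in control, 5.54, 5.55 and 5.26 in siNELF-A, 6.28, 6.36 and 4.70 in siNELF-B, 5.49, 5.29 and 5.83 in siNELF-C, and 5.44, 5.64 and 5.65 in siNELF-E. All knockdown arrays lay below the lowest control array, siNELF-B replicates 1 and 2 narrowly. The average change was -1.05 ± 0.27 (2.08-fold; adjusted p = 0.0418), lost on leaving out any of 12 of the 15 arrays. NSD2 was not in the list of chromatin and transcription cofactors. All 19 members of that list had a negative average change as deposited, with a median of -0.51, and 15 did after median centring. None was called on average, and in siNELF-E DNMT1, the maintenance DNA methyltransferase, fell by 0.98. As deposited, 169 of the 290 members and 10378 of 16941 genes had a negative average change. Of the 19, 17 were at or above the 40th percentile of signal. Members from there to the 70th percentile had a median of -0.32 and those above it -0.48. The part of signal in the list medians was not tested. Without siNELF-B replicates 2 and 3, NIPBL, the cohesin loader, TPR, a nuclear pore protein, and KMT2C, a histone methyltransferase, were called at -0.80, -0.74 and -0.64. MED13L, a Mediator subunit, and BAZ2A, a remodelling factor of ribosomal DNA, had -0.51 and -0.32 on average, neither called.

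The remaining lists held few calls. The 8 genes of RNA processing and translation had a median of -0.52 with none called, among them EIF4G1, a translation initiation scaffold, at -0.12 and CNOT1, the scaffold of the main deadenylase, at -0.52. The 10 vesicle trafficking genes had a median of -0.42 and the 13 ubiquitin genes -0.38, with none called on average. HUWE1 and USP9X, a ubiquitin ligase and a deubiquitinase, had -0.22 and -0.28. With median centring these medians were -0.26, -0.16 and -0.12. Of the genes in these lists, 8 of 8, 8 of 10 and 12 of 13 were at or above the 40th percentile of signal. The 18 exchange factors and GAPs had -0.22, which became 0.04 with median centring. The 8 ABC transporters had -0.02 (0.25 with median centring) and the 14 large surface receptors 0.02, with ADGRV1 called. SORL1, a sorting receptor, had -0.71 and NOTCH3, a signalling receptor, 0.22, neither called. Of the 3 metabolic carboxylase and lipid genes, ACACB, which makes malonyl-CoA, fell by 0.78 in siNELF-E. RNF213, the 1 interferon-stimulated member, had -0.65 and was not called. The 2 plasma protein genes had a median of 0.16 and were dim. In all, 201 members were in at least 1 list and 89 were in none.

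**Figure D4:**
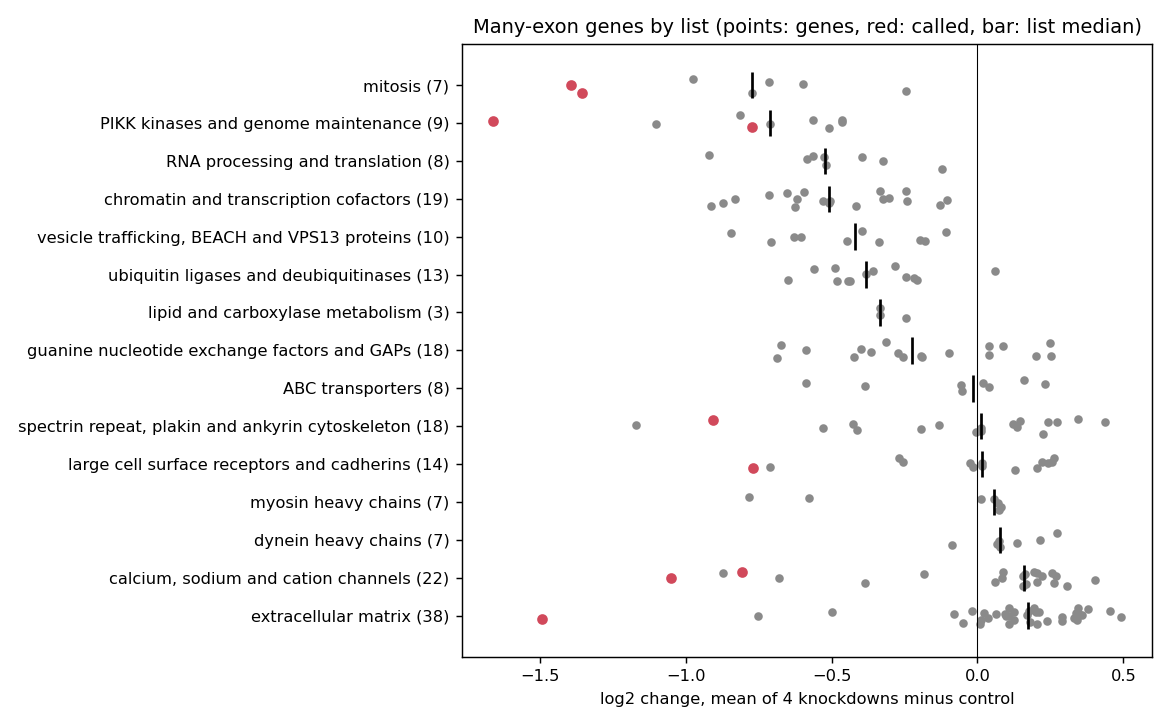
Log2 change in the mean of the 4 knockdowns for the members of each list with 3 or more members (numbers in brackets). Points are genes, red points were called and bars are list medians. The mitosis and genome maintenance lists have the lowest medians (-0.77 and -0.71, or -0.51 and -0.45 with median centring). The extracellular matrix list has the highest (0.17, or 0.44). In these lists, in turn, 5 of 7, 8 of 9 and 16 of 38 genes were at or above the 40th percentile of signal.

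Single probe sets were tested in the same way over all 287329. In the mean of the knockdowns 78 of the members' 19272 probe sets were lower (0.405%, all probe sets 0.818%) and 3 higher (0.0574%). In siNELF-A there were 96 lower (0.556%) and 1 higher (0.0623%). In siNELF-B there were 18 lower (0.157%) and 1 higher (0.00661%). In siNELF-C there were 100 lower (0.969%) and 33 higher (0.181%). In siNELF-E there were 194 lower (1.35%) and 11 higher (0.251%). Of the 78, 55 were in the 10 genes called as a whole. Only 26 members had any called probe set in the mean of the knockdowns. CIT had the largest share, 21 of 57, followed by FLNA with 9 of 51 and FN1 with 11 of 68.

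In the 10 genes called as a whole, most probe sets lay below control, though few passed the test singly. A gene's value is the median over these same probe sets, so a majority below control largely follows from the call. High shares were not limited to called genes. Over all members, 68 had more than 90% of their probe sets negative, and 4 had all negative. Those 4 were CIT, FLNA, COL12A1 and ASCC3, of which COL12A1 and ASCC3 were not called in this mean. All 57 probe sets of CIT and all 51 of FLNA had a negative average change, from -3.15 to -0.19 and from -1.65 to -0.17. In siNELF-E 42 of the CIT probe sets were called. FANCD2 had 52 negative of 56, FN1 61 of 68, CENPE 59 of 61, NSD2 53 of 56, ITPR3 57 of 62, ADGRV1 99 of 110, FANCA 51 of 59 and PKD1L1 62 of 73. CENPE had 2 called singly and NSD2 none. In FN1, the middle 24 probe sets had a median change of -2.43 in siNELF-A with 13 called, and the 22 at each end had -1.55 and -2.10. COL5A2, called in siNELF-C and not in the mean of the knockdowns, had no single probe set called in that mean, with 13 of 60 negative. Its probe sets in siNELF-C are not described here, so this count does not bear on its rise there. Over all members the SD of a gene's probe-set changes had a median of 0.37, against 0.38 in the comparison genes.

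Order along the gene was read from the probe set numbers. Over 44 combinations of chromosome and strand, the rank correlation between the gene starts and the genes' median probe set number was at least 0.898, and that the order also holds within genes is assumed. For 234 members with a known strand and consecutive numbers, the median change of the third nearest the start was set against that of the third nearest the end. In the mean of the knockdowns the difference, start minus end, had a median of -0.03, with 42.3% of members positive, against 0.03 and 55.2% in 8800 comparison genes. In siNELF-C it was 0.00 with 50.4% positive, against 0.12 and 63.3%. In siNELF-E it was -0.08 with 33.3% positive, against -0.03 and 45.9%. The members' start stretch thus had the more negative change more often than in the comparison genes, by a small amount. Genes are not replicates, and no test was made of these shares.

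PTPRF in siNELF-A had the largest such difference among the 234 members, 1.78, and is described after its values were seen. Its first 16 probe sets had a median change of -0.08 and its last 16 of -1.87. On the arrays, the median signal of the first 16 was 6.41, 6.42 and 6.31 in control and 5.66, 5.77 and 5.49 in siNELF-A. That of the last 16 was 6.55, 6.72 and 6.72 in control and 4.50, 5.26 and 4.62 in siNELF-A. The change of a median signal is not the median of the changes. By median signal the first 16 were also below every control array on each siNELF-A array, and the gap to the last 16 was smaller. The first stretch of PTPRF was split. Probe sets 3, 7, 8, 9 and 10 from the start were called lower, and probe sets 11 to 16 changed by -0.27 to 0.88. In the middle 18 the median was -1.48. All of the last 16 were negative, from -2.85 to -0.46, with 7 called. In siNELF-E the start and end had changes of 0.24 and 0.52. They were -0.01 and -0.30 in siNELF-C and 0.32 and -0.17 in siNELF-B. On siNELF-B replicate 3 the median signals were 6.64 at the start and 5.01 at the end. A lower end was thus also seen outside siNELF-A. Among the 8800 comparison genes the siNELF-A difference reached 3.13.

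**Figure D5:**
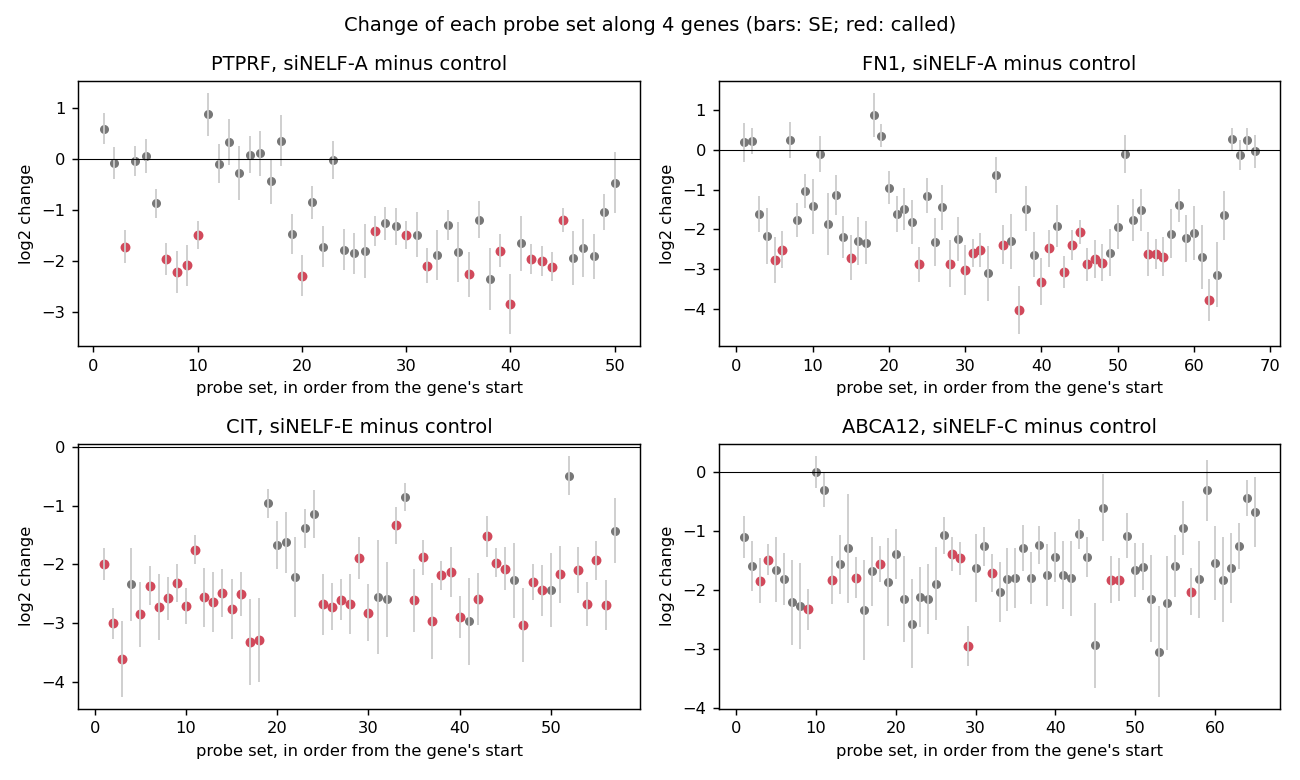
Log2 change (± SE, n = 3 arrays per group) of each probe set in order from the gene's start for PTPRF and FN1 in siNELF-A, CIT in siNELF-E and ABCA12 in siNELF-C. Red points were called; probe sets 11 to 16 of PTPRF lie between -0.27 and 0.88 while its last 16 lie at -0.46 or below, and all 57 of CIT lie below 0.

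Exon usage compares how 1 probe set changes with how its gene changes elsewhere. With limma's diffSplice, over 154584 probe sets of 9852 genes after dim ones were left out, 20 of 10248 member probe sets in 16 of 171 genes were called in the mean of the knockdowns, beside 0.351% of all. The largest, 1 per gene, were in SYNE2 (2.14), FN1 (1.87), MLL4 (-1.80), SVIL (-1.78), NIN (-1.78), CIT (-1.71), WDR90 (-1.69) and SBF1 (1.65). This method shares 1 spread among the probe sets of a gene, and on simulated data it called many probe sets that had not been changed. Fitting each probe set's difference from its gene's median separately called none of the members, beside 0.00841% of all. At an unadjusted p below 0.05 that fit had 652 member probe sets (6.36%, all probe sets 8.3%). Without siNELF-B replicates 2 and 3 it called 36 of 10208 member probe sets in 23 genes, 28 higher and 8 lower, beside 0.589% of all. Of the 36, 4 were also called by diffSplice with all arrays. The count of usage calls thus changed with the method and with those arrays. The probe sets described next were picked after their values were seen.

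Among the 36, neighbouring probe sets in NIN and ARFGEF1 both stood above their genes. Probe set 3564180 of NIN was at 7.36, 6.75 and 7.16 in control, 7.47, 7.57 and 7.88 in siNELF-A, 8.23, 7.48 and 8.44 in siNELF-B, 7.86, 7.97 and 7.84 in siNELF-C, and 7.91, 6.99 and 7.68 in siNELF-E. On these arrays NIN as a whole was called lower in every knockdown, and this probe set differed from its gene by 1.46 ± 0.25 (adjusted p = 0.0368). Its neighbour 3564181 differed by 1.15. In ARFGEF1, an exchange factor of the Golgi, probe sets 3139136 and 3139137 differed by 1.23 and 0.85. Probe set 2598375 of FN1 was at 6.18, 5.59 and 5.18 in control and at 4.94 to 6.21 on the knockdown arrays, overlapping control, while the gene fell. SVIL, an actin-binding protein, had probe set 3283006 relatively higher by 1.59 and probe sets 3283140 and 3283025 relatively lower by -1.49 and -1.17. LOC727751 had 8 of the 36. Its 70 probe sets, like those of SERINC2 and ADAMTS13, are numbered over a span of more than 400000 where all other members span at most 367. They may belong to separate or near-identical loci, so these 3 genes are uncertain.

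At the threshold of the rule, the 22 genes with exactly 50 probe sets had a median average change of -0.30 (from -0.93 to 0.22) and none was called. The 13 genes with 49 had -0.55 (from -0.98 to 0.30) and 1 was called.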

How the data were processed

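RNA of 15 samples (5 siRNA groups, 3 technical repeats each) was hybridised to Affymetrix human exon arrays. The deposited values are log2 signals from exon-level RMA summaries of core exons, made by the authors in ArrayAssist on hg18, per the labels; its version is not given in sources used here. Symbols came from the platform annotation: 261273 probe sets had 1 symbol, 9155 several and 16901 none listed. Updated symbols replaced 19 member names. Each gene's median over its probe sets was fitted with limma 3.58.1 (R 4.3.3) as 5 group means, with contrasts of each knockdown, and of their mean, against control. Calls needed 1.5-fold change and p below 0.05 after Benjamini-Hochberg adjustment across every feature. Exon usage used diffSplice, after dropping probe sets below the 25th percentile, genes below the 40th and genes with under 3 probe sets. Scripts were tested on simulated data.

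The genes named were the 5 members with most probe sets, members called and largest in the mean or in 1 knockdown, up to 3 called and the 2 brightest uncalled of each list, and the largest usage changes. The text says where others were picked after their values were seen, and other genes outside this rule were picked so too. Members and lists were chosen with earlier results of these data known. Alternatives covered normalization, filters, the probe set limit, replicate blocks and left-out arrays. The fits without siNELF-B replicates 2 and 3 were decided with the correlations of those arrays known. Promoter sequences are RefSeq's.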

Additional observations from a re-analysis of the deposited data

Results flagged for a closer look

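Differences between knockdowns were tested for each of the 6 pairs with limma over all genes, and the many-exon genes listed here passed the adjusted p and fold limits. Values are log2 differences, with the first-named group minus the second. SiNELF-B was higher than siNELF-A for ABCA2 (1.07), PLXND1 (1.27), PREX1 (1.10) and PTPRF (1.45) and lower for BRWD3 (-1.23) and FLNA (-0.94). SiNELF-C was higher than siNELF-A for CACNA1D (1.47), COL4A5 (1.13), COL5A2 (1.32), PREX1 (1.38) and PTPRF (1.18) and lower for ABCA4 (-0.67) and MED12L (-1.05). SiNELF-E was higher than siNELF-A for ABCA12 (2.57), ABCA2 (0.84), COL4A5 (0.88), ADGRV1 (1.32), MYO10 (1.52), PLXND1 (1.39), PREX1 (1.08) and PTPRF (1.91) and lower for FANCA (-1.03). SiNELF-C was higher than siNELF-B for COL5A2 (1.34) and FLNA (1.71) and lower for ABCA2 (-1.01). SiNELF-E was higher than siNELF-B for ABCA12 (1.90), ANK3 (1.61), BRWD3 (1.09), ADGRV1 (1.05), PTPN13 (1.62) and UGGT2 (1.16) and lower for CIT (-1.52) and FANCA (-1.08). SiNELF-E was higher than siNELF-C for ABCA12 (3.27), ADGRV1 (1.42), MYO10 (1.43) and PTPN13 (1.48) and lower for ACACB (-0.80), COL12A1 (-1.31), COL5A2 (-1.40), FANCA (-0.80) and FLNA (-1.53). ABCA12 had the widest spread, with siNELF-E highest and siNELF-C lowest. PTPRF was lower in siNELF-A than in each of the other 3 knockdowns, and FANCA was lower in siNELF-E than in each of the other 3. COL5A2 was higher in siNELF-C than in each of the other 3. The siNELF-B comparisons include replicate 2, which was nearer to control than to its own group. They also include replicate 3, which had the lowest mean r with its own group and with control. The part of these arrays in the differences was not tested.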

How the results depend on the processing

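None of the 25 calls of named genes that were recomputed turned its direction under the alternatives run, whereas median changes near 0 changed sign with scaling. Genes called in the mean of the knockdowns (10 as reported) became 29 with genes of 40 or more probe sets, 1 with 75 or more, 49 without siNELF-B replicates 2 and 3 and 2 when the fit had a term for array interquartile range. Leaving out 1 array gave 0 to 59. In siNELF-A (8) the count was 15 with quantile normalization, 14 with median or 75th percentile centring, 14 with the mean of probe sets, 19 with 40 or more, 1 with 75 or more and 57 without siNELF-B replicates 2 and 3; leaving out 1 array gave 3 to 54. In siNELF-B (1) it was 3 with each scaling, 5 with the mean, 2 without dim probe sets, 4 with 40 or more, 0 with 75 or more and 34 without replicates 2 and 3; leaving out 1 array gave 1 to 121. In siNELF-C (10) it was 18, 19 and 18 with quantile, median and 75th percentile scaling, 18 with the mean, 37 with 40 or more, 1 with 75 or more and 82 without siNELF-B replicates 2 and 3; leaving out 1 array gave 1 to 74. In siNELF-E (14) it was 31 with 40 or more, 0 with 75 or more, 35 without siNELF-B replicates 2 and 3 and 32 with the interquartile range; leaving out 1 array gave 3 to 30. Except for the fewer or more genes that 40 and 75 probe sets admit, the cause was not tested. The shares over all genes moved too. With the interquartile range term in siNELF-E, 5.86% of members were lower and 5.17% higher, beside 4.86% and 6.3% of all genes. With quantile normalization in siNELF-A, 5.17% were lower and none higher, beside 2.56% and 1.01%. With median centring there, 4.83% were lower and none higher, beside 2.26% and 1.12%. In siNELF-C 4.14% were lower and 2.07% higher with quantile normalization, beside 4.5% and 2.13%. With median centring in siNELF-C the shares were 4.14% and 2.41%, beside 4.33% and 2.28%. No such share was computed with the mean of probe sets, without dim probe sets or with the replicate block. For probe sets, shares were computed only for the main setting and the separate usage fits.

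Probe sets called in the mean of the knockdowns (81) became 51 and 53 with median and 75th percentile centring, 278 and 10 with 40 and 75 or more, 1060 without siNELF-B replicates 2 and 3 and 2 with the interquartile range; leaving out 1 array gave 0 to 964. In siNELF-A (97) they became 214, 14, 913 and 53 under the last 4 of these, and 10 to 693 without 1 array. In siNELF-B (19) they became 9 and 12 with centring, then 38, 2, 403 and 0, and 0 to 3210 without 1 array. In siNELF-C (133) they became 326, 31, 1920 and 61, and 9 to 1346 without 1 array. In siNELF-E (205) they became 320 and 309 with centring, then 558, 22, 731 and 399, and 61 to 610 without 1 array. Exon usage calls by diffSplice (20) became 32, 38 and 37 with quantile, median and 75th percentile scaling, 43 and 2 with 40 and 75 or more, 192 without siNELF-B replicates 2 and 3 and 31 with no filter. They became 0 and 36 with separate fits per probe set on all arrays and without siNELF-B replicates 2 and 3, and 1 to 124 without 1 array.

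The median change of members (-0.17) became 0.095 and 0.089 with median and 75th percentile centring, and -0.24 to -0.08 without 1 array. In siNELF-B (-0.19) it became 0.094, 0.23, 0.21 and 0.060 with quantile, median, 75th percentile and interquartile range settings, and -0.36 to -0.01 without 1 array. In siNELF-C (-0.10) it became 0.19 with both centrings, and -0.13 to -0.05 without 1 array. Without 1 array it ran from -0.22 to -0.13 in siNELF-A and from -0.02 to 0.00 in siNELF-E. The spread of probe sets within a gene (1.56) became 1.34 without dim probe sets, 1.47 with 75 or more, and 1.55 to 1.57 without 1 array. With the replicate number as a block (replicate block), genes called in siNELF-C became 5, and called probe sets became 30, 51, 7, 57 and 135 in the mean and in siNELF-A to siNELF-E in turn. Same-numbered arrays of different groups had correlated deviations of over 0.1 in 6 of 30 pairs (median -0.002), so the numbers were not taken to pair the arrays. Of the 25 calls of named genes, 13 were kept with the interquartile range term, 20 with the block, 22 with either centring, 23 with quantile normalization, 24 without dim probe sets and 25 with the mean of probe sets, and the gene-level table kept 18 of 18. The small number of arrays, and their being technical repeats, limits the precision.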
